A study of Homo sapiens with 6 samples.

Results

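The AP-1 family genes FOS, FOSB, FOSL1, FOSL2, JUN, JUNB, JUND, BATF and BATF3 were taken as a list of 9 among 19974 protein-coding genes. Every accessible region within 50 kb of their gene bodies on hg38 was followed across the study's libraries. These windows held 161 of the 216003 regions that resulted when peaks of all libraries with a −log10 q of at least 2 were merged. Open chromatin of KMS-11, an established human multiple myeloma line, was mapped by ATAC-seq, a method that uses Tn5 transposase to cut and tag accessible DNA. There were 3 ATF4 knockdown libraries, made from cells carrying the lentiviral construct labelled LentiV2_ATF4g3, and 3 control libraries from cells labelled LentiV2, the vector name that both groups share. Both groups carry the genotype label WT, and the knockdown rests on 1 line and 1 guide label, whose mode of action the labels do not give. Peak lists do not measure ATF4 itself, so the knockdown was not checked here. The 3 libraries of each group are labelled as biological replicates. The title of the study names a complex of ATF4 with p52 at enhancers and the gene BACH1.

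AP-1 is a dimer of basic leucine zipper proteins that binds a short palindromic DNA element and switches genes on after growth factor, cytokine or stress signals. JUN proteins pair with each other or with FOS proteins, whereas FOS proteins need a JUN partner. BATF proteins lack the activation domain of FOS, pair with JUN proteins, and in lymphoid cells act together with the interferon regulatory factor IRF4, on which myeloma cells depend. ATF4 is a zipper protein of the same wider family, known for the response to amino acid shortage, and binds elements related to those of AP-1.

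The promoters of 5 members are shown because an accessible region lay over each of them in all 6 libraries and because each held a searched element of the AP-1 or CREB/ATF kind. Each window runs from 250 bases before to 50 bases after the annotated start, 5′ to 3′ on the gene's strand, from RefSeq on GRCh38.p14, the assembly of hg38, and capitals mark the matched letters.
FOS: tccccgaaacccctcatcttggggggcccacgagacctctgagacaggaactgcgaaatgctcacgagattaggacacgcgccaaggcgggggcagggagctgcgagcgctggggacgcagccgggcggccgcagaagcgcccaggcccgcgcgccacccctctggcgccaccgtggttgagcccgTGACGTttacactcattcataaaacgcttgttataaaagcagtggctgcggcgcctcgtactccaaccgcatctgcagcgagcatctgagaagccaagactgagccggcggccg
FOSB: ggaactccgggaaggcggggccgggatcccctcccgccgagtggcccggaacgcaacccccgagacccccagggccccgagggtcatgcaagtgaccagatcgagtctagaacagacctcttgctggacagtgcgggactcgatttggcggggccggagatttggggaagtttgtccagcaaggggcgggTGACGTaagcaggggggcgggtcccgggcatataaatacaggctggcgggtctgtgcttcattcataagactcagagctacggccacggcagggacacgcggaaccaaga
FOSL2: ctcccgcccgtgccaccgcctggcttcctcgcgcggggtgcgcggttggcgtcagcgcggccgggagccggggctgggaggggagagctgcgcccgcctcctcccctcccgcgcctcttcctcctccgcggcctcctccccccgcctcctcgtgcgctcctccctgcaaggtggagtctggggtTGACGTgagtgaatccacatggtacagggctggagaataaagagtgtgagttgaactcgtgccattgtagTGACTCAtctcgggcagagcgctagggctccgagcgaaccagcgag
JUN: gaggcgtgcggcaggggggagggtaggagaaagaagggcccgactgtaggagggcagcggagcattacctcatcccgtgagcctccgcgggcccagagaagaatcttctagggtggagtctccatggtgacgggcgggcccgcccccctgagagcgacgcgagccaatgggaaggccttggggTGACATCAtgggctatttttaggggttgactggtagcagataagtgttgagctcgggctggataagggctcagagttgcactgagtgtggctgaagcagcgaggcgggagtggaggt
JUND: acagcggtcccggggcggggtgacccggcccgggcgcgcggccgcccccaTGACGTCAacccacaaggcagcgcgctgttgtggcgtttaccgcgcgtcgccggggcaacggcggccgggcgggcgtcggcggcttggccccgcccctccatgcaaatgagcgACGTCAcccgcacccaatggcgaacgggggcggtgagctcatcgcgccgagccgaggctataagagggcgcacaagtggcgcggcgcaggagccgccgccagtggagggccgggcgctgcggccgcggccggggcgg
The windows are chr14:75278578-75278877 on the plus strand for FOS, chr19:45467746-45468045 on the plus strand for FOSB, chr2:28392608-28392907 on the plus strand for FOSL2, chr1:58783998-58784297 on the minus strand for JUN and chr19:18281573-18281872 on the minus strand for JUND.

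Both strands were searched for TGACTCA (the AP-1 site), TGACNTCA (the cyclic AMP response element with any central base), TGACGT (the core shared by CREB/ATF sites) and TGATGNAA (the composite site bound by ATF4 with C/EBP partners). TGACGT stood 64 bases before the start of FOS, 60 bases before that of FOSB and 66 bases before that of FOSL2. JUN held TGACATCA 67 bases before its start, and FOSL2 held TGACTCA just inside its transcribed sequence, 5 bases after the start. JUND held the full element TGACGTCA 200 bases before its start, within which TGACGT matches on both strands, and a further match on the opposite strand 87 bases before the start. TGATGNAA matched none of the 7 member promoters in the sequence table, and JUNB and BATF held none of the 4 motifs. Of 15813 promoters of the same length, 3.67% held TGACTCA, 7.17% TGACNTCA, 9.66% TGACGT and 2.54% TGATGNAA, and 19.3% held any of them, against 5 of the 7 members. A match describes letters in the window and not a bound site. Accessible regions listed in all 6 libraries covered all 300 bases of the window in 6 of these members and 269 bases in JUNB.

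Knockdown libraries were shallower than control libraries. The library-wide background pileup, the tag density that the peak caller takes as its genome-wide background, was 2.15 to 2.51 in the knockdown libraries and 2.79 to 3.52 in the control libraries. Listed peaks covered 63.0 to 63.9 Mb in knockdown and 67.0 to 70.7 Mb in control, in 163937 to 171685 separate peaks in knockdown and 135070 to 161433 in control. Among regions listed in all 6 libraries, the median fold over local background was 6.64 to 7.49 in knockdown and 9.11 to 11.1 in control. The part of depth in the differences below was not tested. The plasma cell label was read against peaks within 1 kb of gene ends: all 8 plasma cell and myeloma markers, SDC1, IRF4, PRDM1 and XBP1 among them, had one in all 6 libraries. Of the B cell markers, PAX5 had one in all 6 libraries, CD22 in 5 and MS4A1 in none, and none of the 4 myeloid markers had one in any library. All 4 T and NK cell markers and 3 of 4 epithelial and stromal markers had one in all 6 libraries, and their part in the results was not tested.

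The AP-1 windows held many regions present in every library. Of their 161 regions, 84 (52.2%) had a listed peak in all 6 libraries, against 35.2% of the regions within 50 kb of any protein-coding gene. Region widths ran from 150 to 2576 bp with a median of 495 bp. By place, 20 regions lay within 1 kb of a member's own ends, 5 in the gene bodies and 136 in the flanks, and 66 had the member as their nearest gene. The neighbourhoods differ: FOS, FOSL2 and JUN had no other protein-coding gene within their windows, BATF3 had 1, BATF 2, FOSB and JUND 4 each, JUNB 8 and FOSL1 10. Consequently 11 of the 28 regions near JUNB and 8 of the 16 near FOSL1 lay at the ends of other genes. So did 8 of the 20 near JUND and 6 of the 23 near FOSB. The member was the nearest gene for 3 regions near JUNB, 2 near FOSL1, 4 near JUND and 4 near FOSB. Values of these windows belong to the window rather than to the AP-1 gene alone.

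Peak-covered DNA per kb of window, scaled to the same total in every library, ranked the members in nearly the same order in both groups. FOSB led with 130 ± 5.64 bp per kb in knockdown and 137 ± 9.64 bp per kb in control (SD, n = 3 each, here and for each value of this kind). JUNB followed with 106 ± 2.81 bp per kb in knockdown and 113 ± 8.10 bp per kb in control. JUND had 88.9 ± 11.2 bp per kb in knockdown and 95.03 ± 1.93 bp per kb in control. These 3 levels were separated by the ranges of their libraries in both groups, whereas FOSL1, with 88.9 ± 7.16 bp per kb in knockdown and 92.3 ± 7.51 bp per kb in control, overlapped JUND. FOS stood alone in the middle with 68.1 ± 0.85 bp per kb in knockdown and 76.6 ± 2.13 bp per kb in control. The lowest 4 were BATF3, FOSL2, JUN and BATF. In knockdown they averaged 53.5 ± 7.67, 51.3 ± 4.91, 47.1 ± 0.54 and 43.9 ± 0.78 bp per kb, and in control 61.3 ± 3.27, 42.4 ± 4.34, 58.6 ± 7.29 and 54.5 ± 2.98 bp per kb. Among these 4, BATF was below JUN without overlap in knockdown, and FOSL2 was below BATF without overlap in control.

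The covered length in each window was then compared between groups as log2(bp + 200) with limma across 19690 genes. None of the 9 members passed an adjusted p of 0.05, a threshold that 2.67% of all genes passed as lower and 2.88% as higher in knockdown. At an unadjusted p below 0.05, 3 members were lower and 1 was higher, against 13.3% and 8.91% of all genes. The same 4 members, FOS, JUN and BATF lower and FOSL2 higher, had groups that did not overlap, against 16.8% of all genes lower and 9.64% higher. The median log2 difference over the 9 members was −0.10, beside −0.04 over all genes.

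Among the FOS genes, FOS, the classic immediate early gene, had 7002, 6978 and 7141 bp in the knockdown libraries and 8109, 7677 and 7972 bp in the control libraries. All 3 knockdown values were below all 3 control values, with a log2 difference of −0.17 ± 0.07 (SE) and an limma adjusted p of 0.214. FOSB, its close relative known from persistent neuronal stimulation, had 14057, 13239 and 14419 bp in knockdown and 14854, 13591 and 15639 bp in control. The groups overlapped, and the log2 difference was −0.08 ± 0.07 (limma adjusted p = 0.572). FOSL1, which encodes FRA-1, a FOS protein without the strong activation domain, averaged 9645 ± 776 bp in knockdown and 10015 ± 815 bp in control, also overlapping (−0.05 ± 0.08, limma adjusted p = 0.766; the sign turned to 0.05 when lists were cut to equal length). FOSL2, which encodes the related FRA-2, had 7027, 5809 and 6323 bp in knockdown and 5764, 4697 and 5382 bp in control. It was the 1 member with more covered DNA in knockdown, with no overlap between groups and a log2 difference of 0.27 ± 0.10 (limma adjusted p = 0.151).

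Among the JUN genes, JUN itself, the main partner of FOS, had 4926, 4825 and 4833 bp in knockdown and 5563, 5679 and 6921 bp in control. The knockdown values were nearly identical and lay below all control values, of which control 3 was the highest, and the log2 difference was −0.30 ± 0.10 (limma adjusted p = 0.0996). JUNB, which can hold back JUN activity and which plasma cell tumours are known to use, averaged 10795 ± 286 bp in knockdown and 11497 ± 825 bp in control (−0.09 ± 0.07, limma adjusted p = 0.524). JUND, the most constantly expressed JUN gene, averaged 9064 ± 1139 bp in knockdown and 9686 ± 197 bp in control (−0.10 ± 0.09, limma adjusted p = 0.554). The groups overlapped at both genes, and knockdown 2 was the lowest library at both.

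Among the BATF genes, BATF, needed for antibody class switching and for several T helper programmes, had 5562, 5480 and 5369 bp in knockdown and 7114, 6383 and 6863 bp in control. The groups were far apart relative to their spread, and the log2 difference of −0.30 ± 0.08 came closest of the members to the threshold, with an limma adjusted p of 0.0561. BATF3, known for the development of cross-presenting dendritic cells, had 5682, 5453 and 7060 bp in knockdown and 7387, 6753 and 6735 bp in control. Knockdown 3 reached into the control range, and the log2 difference was −0.20 ± 0.10 (limma adjusted p = 0.277).

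**Figure D1:**
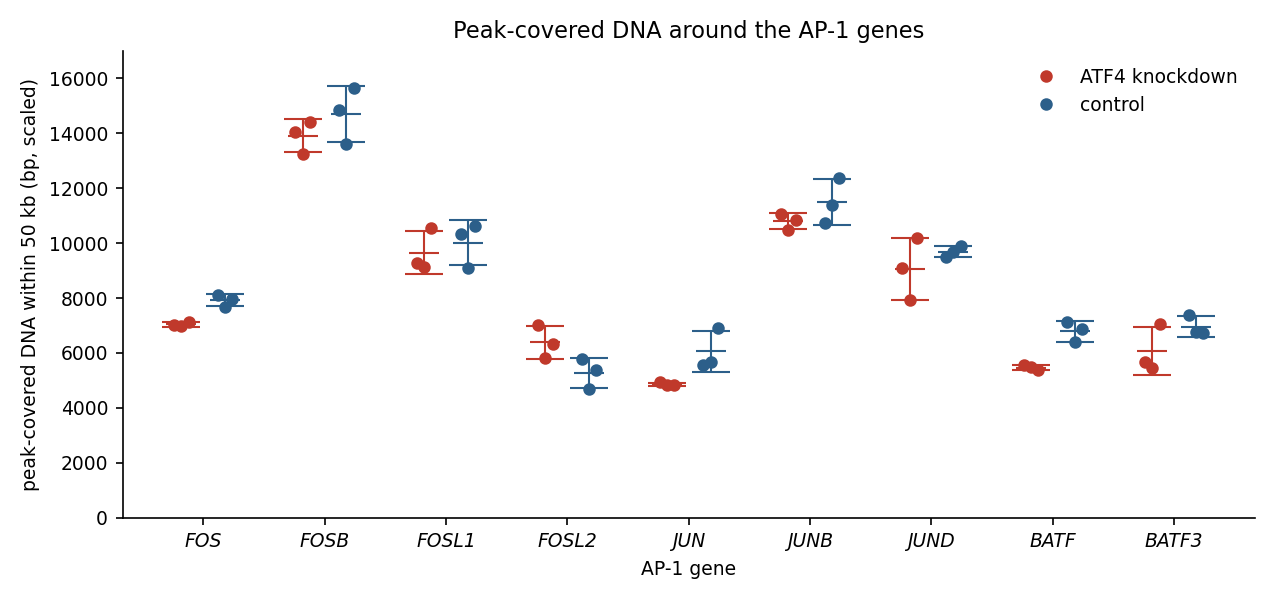
Peak-covered DNA (bp, scaled to the same library total) within 50 kb of each AP-1 gene; points are libraries, bars are mean ± SD, n = 3 per group. FOS, JUN and BATF have all 3 knockdown libraries below all 3 control libraries, and FOSL2 has them above.

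Scaling bears on these values. Without scaling by the library total, the median log2 difference of all genes was −0.16, a shift of more than 0.1 from the scaled median. FOS, FOSB, JUN, JUNB and BATF then passed the threshold as lower (limma adjusted p from 0.00902 for BATF to 0.0431 for FOSB). Of all 19690 genes, 4136 passed as lower and 458 as higher in that setting. With lists cut to equal length, FOS was at −0.06, JUN at −0.26 and BATF at −0.22, none of them past the threshold. When only peaks at a −log10 q of 5 or more were counted, the median of all genes moved to 0.10, and the sign turned at FOS (0.11), FOSB (0.24), FOSL1 (0.17), JUNB (0.11), JUND (0.14) and BATF3 (0.0650). Of these, FOSB passed as higher in knockdown (limma adjusted p = 0.0104), the opposite of its call without scaling. Over all genes, 3608 passed as higher and 905 as lower at that peak limit. JUN and BATF stayed lower in knockdown under all 16 alternatives, from −0.42 to −0.15 and from −0.44 to −0.13, and FOSL2 turned to −0.0656 in a window of 10 kb.

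Accessibility of the gene starts was read from the fold over local background at the summit, the peak caller's value as the authors deposited it. Where a region held several summits in a library, the highest fold was taken. The highest −log10 q and the highest pileup were taken separately and need not come from the same summit. A constant region lay over the start of each of the 7 members with a known strand and over an annotated end of FOSL1 and BATF3. The starts of JUN, FOS and JUND were unusually broad: the JUN region chr1:58782308-58784883 spanned 2576 bp, the FOS region chr14:75276966-75279476 spanned 2511 bp and the JUND region chr19:18280034-18282270 spanned 2237 bp. They stood at percentiles 98.9, 98.7 and 96.7 of width among 8649 constant regions over a gene start, whose median was 1301 bp. At the other end, the FOSL1 region chr11:65900090-65900823 spanned 734 bp and the JUNB region chr19:12791267-12791978 spanned 712 bp, at percentiles 4.42 and 3.86.

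The folds at these starts were mostly modest beside the medians of all start regions, 12.2 in knockdown and 13.8 in control. JUN had 8.40, 7.98 and 8.49 in knockdown and 9.58, 9.45 and 9.22 in control. JUND had 7.43, 7.74 and 7.85 in knockdown and 8.93, 9.55 and 8.42 in control. At both starts the knockdown values lay below all control values. FOS had 6.55, 7.53 and 6.76 in knockdown and 7.29, 9.09 and 7.81 in control, and BATF had 7.65, 8.13 and 10.5 in knockdown and 9.29, 9.40 and 9.45 in control. The groups overlapped at both of these. JUNB was among the lowest of all, with 3.66 ± 0.83 in knockdown and 4.01 ± 0.47 in control, and BATF3 was the highest member, with 13.8 ± 1.16 in knockdown and 15.8 ± 1.67 in control.

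A low fold does not mean few tags there, because the caller's local background was raised around most of these genes. At the JUNB start it was 18.7 times the library-wide background in knockdown and 20.7 times in control. At the JUND start it was 17.3 times in knockdown and 14.8 times in control. At the BATF start it was only 1.35 times in knockdown and 1.89 times in control. The pileup recovered from the deposited values was 136 ± 12.6 times the library background at JUND in knockdown and 136 ± 14.6 times in control, the same level in both groups. At JUN it was 79.0 ± 2.03 times in knockdown and 108 ± 8.80 times in control, and at BATF 15.2 ± 4.19 times in knockdown and 20.4 ± 0.77 times in control. Over all 8649 constant regions at a gene start, the median ratio of knockdown to control on this scale was 0.737. The lower levels at JUN and BATF were thus near the usual ratio, and the equal levels at JUND were above it.

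Since folds move with depth, regions were compared by their rank within a library among the 68050 regions listed in all 6 libraries, converted to normal scores, a scale on which 1 unit is about 1 SD of all regions. The fold of 40 of the 84 AP-1 regions was lower in every knockdown library than in any control library, which is close to the 49.5% of all such regions, and 3 were higher without overlap, against 1.46%. On the rank scale, 32 AP-1 regions had a lower and 52 a higher mean score in knockdown, with a median difference of 0.13, beside 0.03 over all regions. Of all 68050 regions, 52.4% had a higher score in knockdown. Values differed by class: the 34 AP-1 regions within 1 kb of any gene end had a median of 0.29, the same as the 0.29 of all regions of that class. The 50 distal AP-1 regions had a median of 0.03, beside −0.04 for all distal regions.

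All 9 start or end regions of the members had a positive score difference, from 0.16 at FOSL1 to 1.03 at FOSB, in a class in which 86.0% of regions were above 0. None passed an limma adjusted p of 0.05, against 7.23% of start regions called higher. FOSB and BATF were below an unadjusted p of 0.05. Of all 8649 constant regions over a gene start, 3434 were higher and 159 lower at that unadjusted limit. Ranked by covered bases instead of fold, the difference turned negative at FOS (−0.48), JUN (−0.28), BATF (−0.43) and BATF3 (−0.13), and ranked by pileup, JUND passed (0.47, limma adjusted p = 0.000393). With ranks taken within the class of gene ends, FOSL1 turned to −0.14, FOSB was at 0.72 (limma adjusted p = 0.143), and the other 7 lay between 0.0141 at BATF3 and 0.15 at BATF. The FOSB start region chr19:45467491-45468714 was the member start that moved most, with folds of 5.34, 4.37 and 3.87 in knockdown and 3.20, 3.06 and 3.51 in control. All 3 knockdown libraries were above all 3 control libraries, with a score difference of 1.03 ± 0.29 (SE) and an limma adjusted p of 0.0602. Ranked by −log10 q, the difference was 1.04 with an limma adjusted p of 0.00128.

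A second region inside FOSB, chr19:45468844-45470066, begins 848 bp from the start and showed the opposite order of folds, 6.38, 7.0 and 7.78 in knockdown and 11.7, 11.3 and 10.7 in control, without overlap. That order was common: 49.5% of all constant regions had lower folds in knockdown without overlap, against 1.46% with higher folds, as at the FOSB start. On the rank scale, the region inside FOSB had a score difference of −0.22, with a 95% interval of −0.58 to 0.15 and an limma adjusted p of 0.420. Pileups over the library background were 49.6 ± 8.37 in knockdown and 34.6 ± 3.83 in control at the start, and 79.6 ± 7.15 in knockdown and 122 ± 6.57 in control at the region inside the gene. Relative to the library background, pileup at the start was higher in every knockdown library than in any control library, and pileup just downstream was lower in every one. On this scale the median ratio of knockdown to control was 0.688 over all constant regions and 0.737 over those at a gene start. A lower value, as just downstream, was thus the usual direction. Without division by the background, pileups at the start overlapped, with 146, 106 and 104 in knockdown and 99, 95 and 136 in control. The difference between the 2 regions was not tested.

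**Figure D2:**
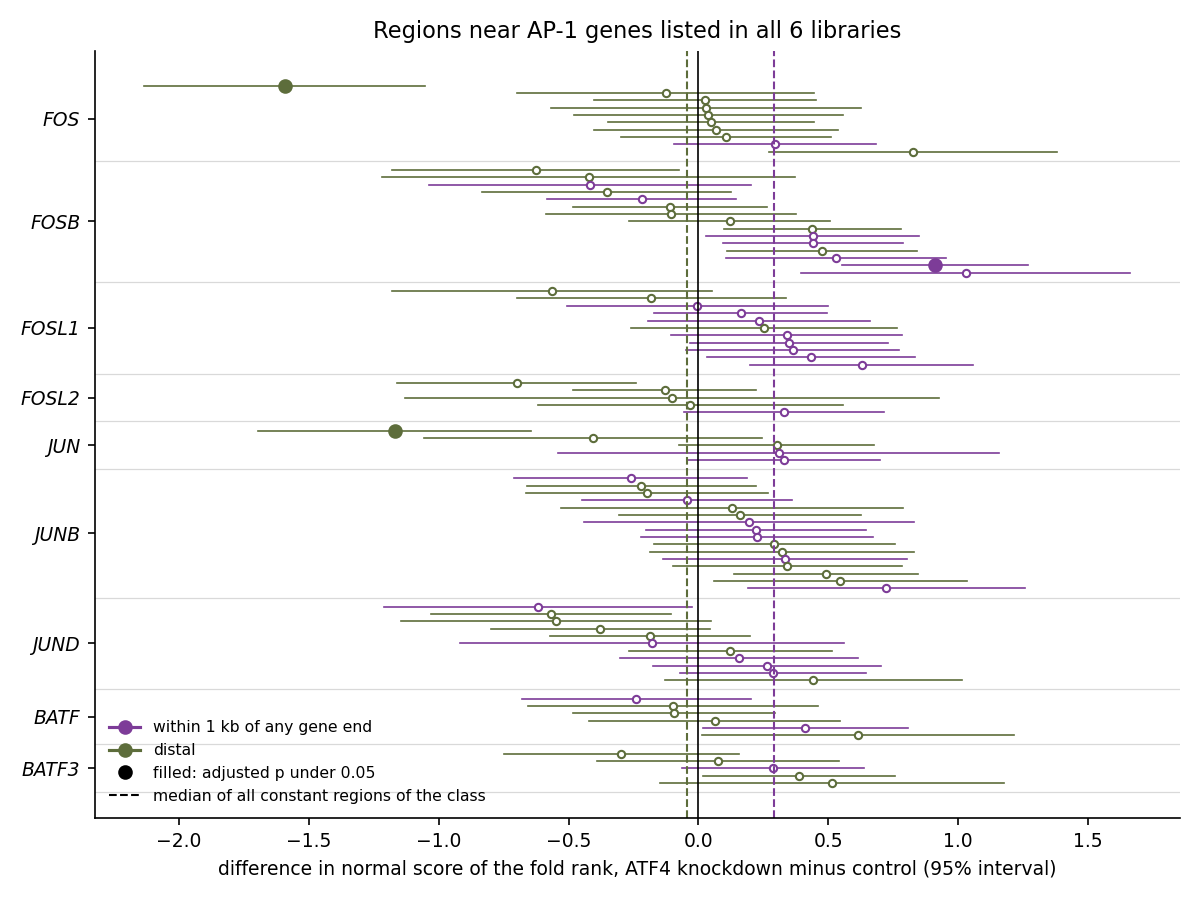
Difference in rank score (ATF4 knockdown minus control, with its 95% interval) for the 84 regions near AP-1 genes listed in all 6 libraries, grouped by gene. Filled points mark the 3 regions past an adjusted p of 0.05, and dashed lines mark the medians of all constant regions at gene ends (0.29) and of all distal ones (−0.04).

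Over the 84 constant regions near AP-1 genes, 2 passed the rank test as lower and 1 as higher in knockdown at an limma adjusted p of 0.05, against 2.88% lower and 2.39% higher of all constant regions. At an unadjusted p, 6 were lower and 16 higher, against 12.3% and 14.5%. Of the 16, 7 were among the 15 constant regions of the FOSB window. By class, 9 of the 34 AP-1 regions at gene ends were higher, against 4531 of 13423 over all constant regions of that class. Among distal regions, 7 of 50 were higher, against 5311 of 54627.

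The lower region chr14:75231262-75231779 lies 47.0 kb upstream of FOS, its nearest protein-coding gene. Its folds were 3.30, 2.75 and 3.16 in knockdown and 9.11, 12.9 and 8.63 in control, with a −log10 q of 2.84, 1.76 and 2.83 in knockdown and 39.8, 66.2 and 37.2 in control. The knockdown libraries were all far below the control libraries, and the region fell on average to percentile 6.51 of folds in knockdown, against 51.2 in control. The score difference was −1.59 ± 0.25 (SE, limma adjusted p = 0.0142), and the pileup was 5.03 ± 0.21 times the library background in knockdown and 22.8 ± 7.03 times in control.

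The neighbouring region chr14:75229945-75230795, less than 1 kb further from FOS, had folds of 6.60, 9.93 and 7.03 in knockdown and 5.25, 6.13 and 7.90 in control. These folds overlapped. Rank percentiles did not, with 49.7, 70.2 and 45.8 in knockdown and 17.6, 18.5 and 40.9 in control. The score difference was 0.83 with an limma adjusted p of 0.0750. The call of the first region did not hold without control 1 (limma adjusted p = 0.0551) or without control 2 (0.0870), nor when regions were ranked by covered bases (0.407).

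The other lower region, chr1:58773161-58773987, lies 6.8 kb past the 3′ end of JUN. Its folds were 6.27, 9.51 and 12.3 in knockdown and 18.2, 21.6 and 19.7 in control. All knockdown libraries were below all control libraries, though they were spread over a wide range. The region stood at percentile 64.8 of folds in knockdown and 93.9 in control, with a score difference of −1.17 ± 0.24 (limma adjusted p = 0.0290) and a pileup of 12.9 ± 4.22 times the library background in knockdown and 39.6 ± 6.37 times in control. The limma adjusted p was 0.0563 to 0.104 without knockdown 1, knockdown 2, control 1, control 2 or control 3 in turn, and 0.0707 when ranks were taken within classes. Ranking by covered bases turned the difference to 0.0917.

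The region that rose, chr19:45496378-45497400, lies over an end of RTN2, which encodes a reticulon of the endoplasmic reticulum, 21.2 kb from FOSB. Its folds were 10.3, 10.8 and 9.90 in knockdown and 8.12, 8.58 and 7.87 in control, without overlap. The score difference was 0.91 ± 0.16 (limma adjusted p = 0.0212), and the pileup was 63.7 ± 5.78 times the library background in knockdown and 57.4 ± 4.68 times in control. The limma adjusted p was 0.0526 to 0.0903 without knockdown 1, control 1, control 2 or control 3, 0.0846 with ranks within classes and 0.341 with ranks by covered bases.

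**Figure D3:**
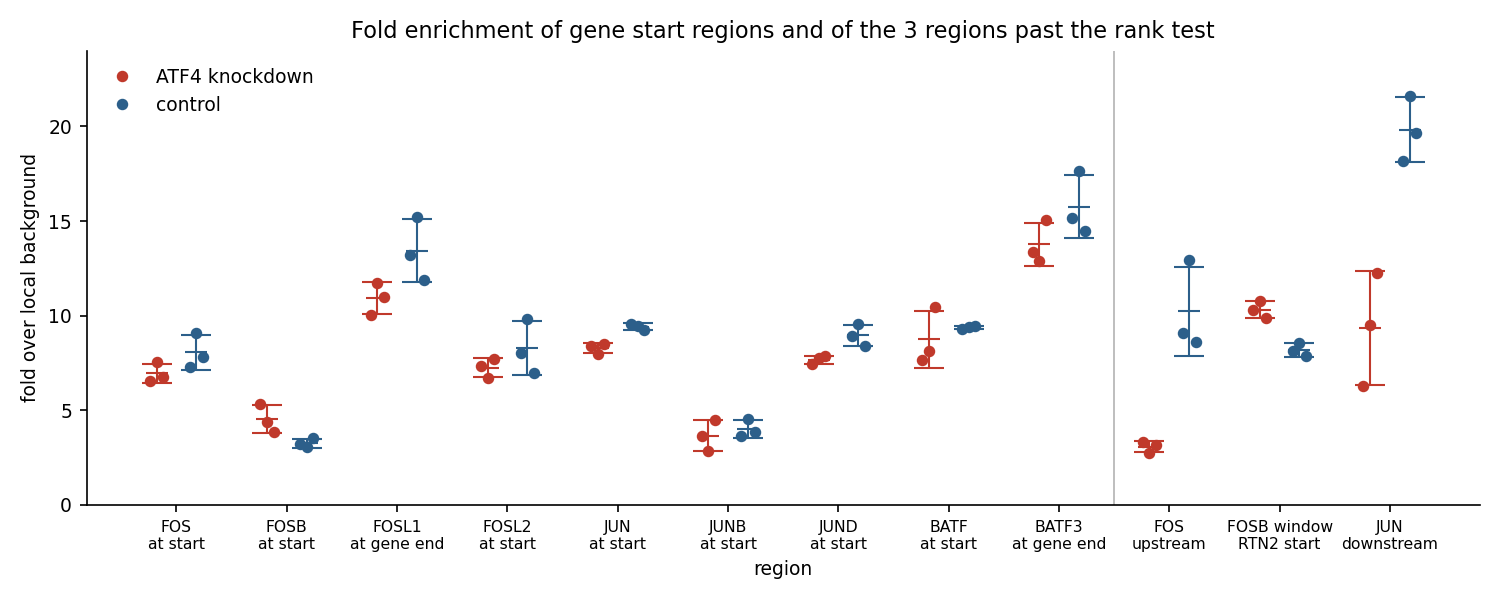
Highest fold over local background among the summits of each of the 9 start or end regions and of the 3 regions past the rank test. Points are libraries and bars mean ± SD, n = 3 per group. The regions upstream of FOS and downstream of JUN have the widest gaps between groups, and the FOSB start and the RTN2 region are the 2 where knockdown lies above control.

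Other flanking regions did not pass the rank test. Near BATF3, chr1:212665109-212665881, 20.5 kb from the gene, had folds of 18.4, 20.9 and 20.8 in knockdown and 24.8, 24.9 and 22.8 in control. It stood at percentile 99.1 in knockdown and 98.8 in control, with a score difference of 0.08 (limma adjusted p = 0.846). Near FOS, chr14:75293903-75294695, 11.7 kb downstream, had folds of 15.4, 16.5 and 18.5 in knockdown and 21.6, 23.03 and 17.9 in control (score difference 0.02, limma adjusted p = 0.951). Near FOSL2, chr2:28452330-28452976, 35.0 kb downstream, had folds of 9.77, 9.84 and 11.2 in knockdown and 15.4, 23.1 and 16.3 in control, without overlap (score difference −0.70 ± 0.21, limma adjusted p = 0.0716). At FOSL2, knockdown thus had more covered DNA in the window beside lower folds at the strongest flank region, and neither difference passed the threshold.

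Some regions were present in 1 group alone. Of the 161 regions in the AP-1 windows, 9 (5.59%) were control-only, that is, listed at a −log10 q of 2 or more in all 3 control libraries and not listed in knockdown. The control-only share was 1.5% of all regions and 1.55% of those near any protein-coding gene. No AP-1 region was knockdown-only, against 0.102% of all regions and 0.0849% of those near a gene. Of the 9, 5 lay where the local background of the control libraries was at least 5 times that of the library, a limit chosen after the values were seen. Of the AP-1 regions with such a background, 9.80% were control-only, against 2.27% of those near any gene. When a −log10 q of 5 or more was required for presence, 1 control-only region remained near the AP-1 genes (0.621%), against 0.561% of all regions. The higher share was no longer seen there, but it stayed under other definitions of presence. With any listed peak, 10 of the 161 AP-1 regions were control-only, against 4737 of all 216003. With lists of equal length, 10 were control-only near AP-1 genes, against 5329 of all regions. The share of these absences that moves with the lower depth of the knockdown libraries was not tested.

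FOSL2 had 2 control-only regions. The first, chr2:28393334-28393658, starts 476 bp inside the gene beside its start region and had folds of 1.80, 2.29 and 1.62 in control. The second, chr2:28419341-28419610, lies 2.0 kb past the gene and had folds of 3.10, 6.06 and 4.20 in control on a local background equal to that of the library. The JUN window held chr1:58804923-58805356, 20.9 kb upstream, with folds of 3.19, 4.64 and 6.41 in control. All were weak peaks.

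The BATF3 window held chr1:212671420-212672019 and chr1:212683121-212683789, 14.4 and 2.6 kb from the gene, with folds of 3.68, 4.65 and 3.37 in control at the farther and 3.10, 4.08 and 2.82 in control at the nearer. The remaining 4 lay on chromosome 19, with raised local background. They were chr19:45428712-45428933 in ERCC1 and chr19:45493612-45493761 in RTN2, both in the FOSB window, chr19:12788703-12788881 in HOOK2, 2.6 kb from JUNB, and chr19:18282339-18282535, 717 bp upstream of JUND. Their folds in control ran from 1.63 to 2.54. FOS, FOSL1 and BATF had no such region.

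**Figure D4:**
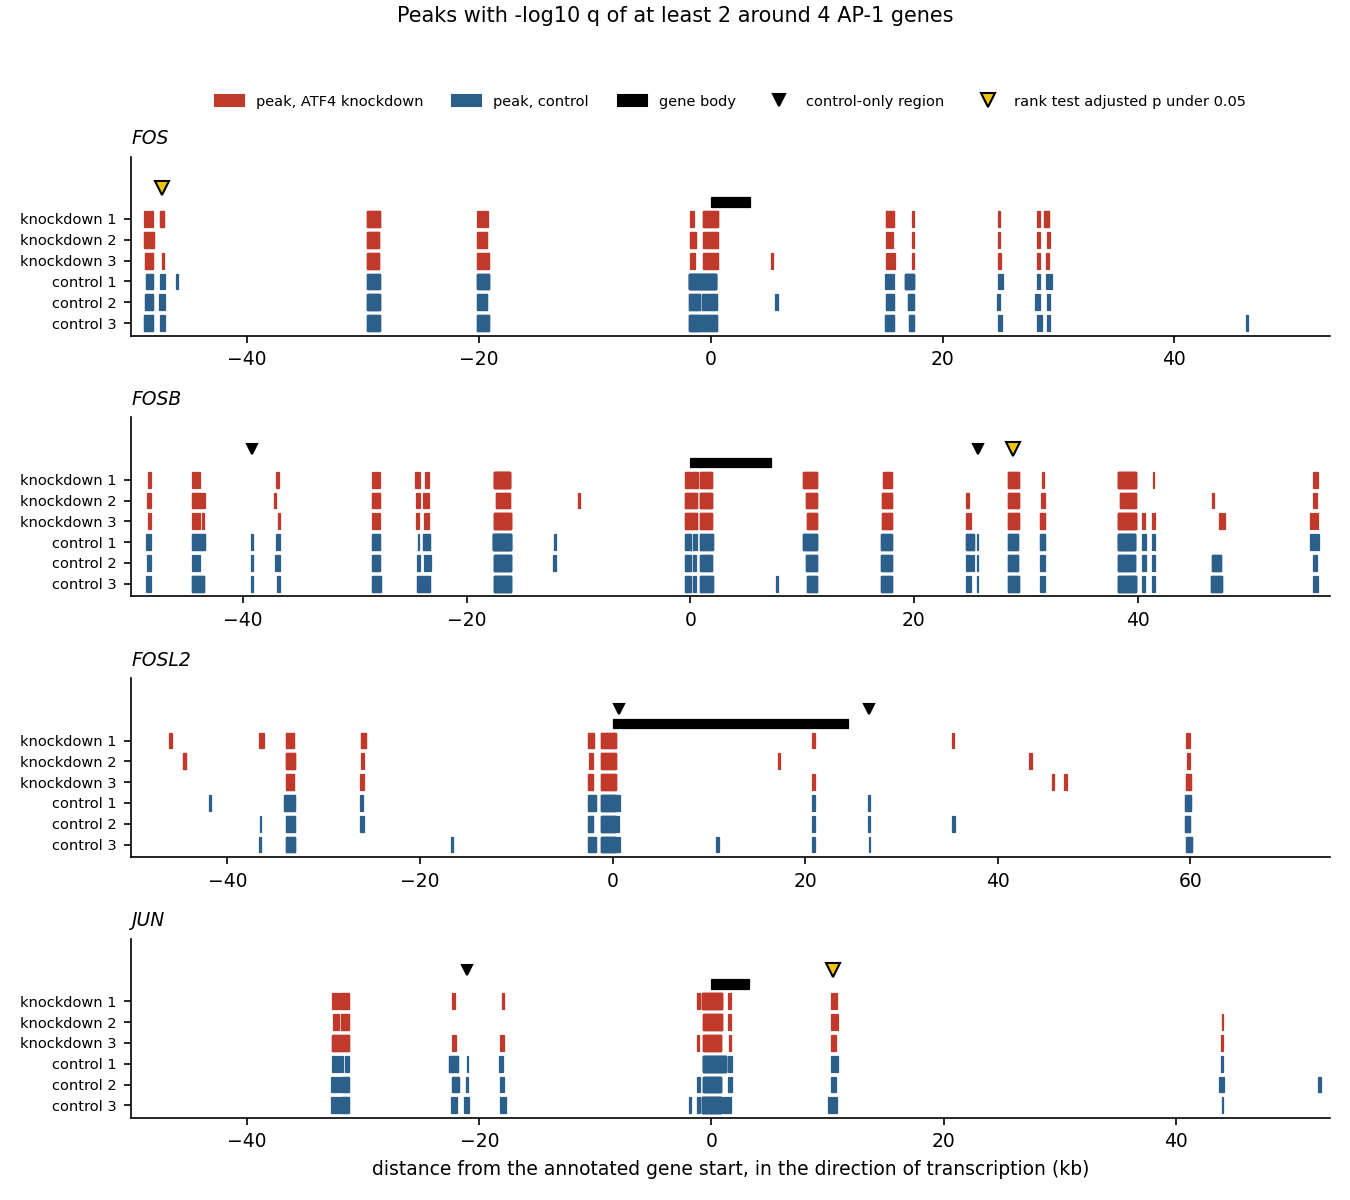
Peaks of each library at a −log10 q of 2 or more by distance (kb) from the annotated start of FOS, FOSB, FOSL2 and JUN, in the direction of transcription; black bars are the gene bodies. Black triangles mark control-only regions and yellow triangles the 3 regions past the rank test, of which the one in the FOSB panel lies at RTN2.

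Other genes of the pathway were read from the same covered-length test over all genes. Of 9 other zipper factors of the AP-1 and CREB/ATF families, 6 had lower and 3 higher means in knockdown, and 1 passed. It was JDP2, whose product pairs with JUN and represses AP-1 sites, with 4391, 3918 and 3562 bp in knockdown and 5290, 5758 and 5977 bp in control. All knockdown values were below all control values (log2 difference −0.50 ± 0.10, limma adjusted p = 0.0175). Of all genes, 2.67% passed as lower and 2.88% as higher, and 16.8% were lower without overlap. JDP2 lies on chromosome 14 between FOS and BATF, and 5 of the 11 regions in its window are shared with the BATF window, so the values of JDP2 and BATF are not independent.

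Of 16 kinases upstream of AP-1, 10 were lower and 6 higher in mean and none passed. Of 19 other immediate early genes, 13 were lower and 6 higher and none passed, with KLF6, a zinc finger factor, at −0.25 ± 0.08 (limma adjusted p = 0.0801) as the smallest p. None of 4 genes of AP-1 turnover and none of 7 AP-1 partner factors passed. Of 11 AP-1 target genes, 8 were lower and 3 higher, and 1 passed: CXCL8, the neutrophil-attracting chemokine interleukin-8, had 6085, 5412 and 5034 bp in knockdown and 4456, 3615 and 4076 bp in control, without overlap (0.43 ± 0.11, limma adjusted p = 0.0394). Among all genes, 2.67% passed as lower and 2.88% as higher, and 9.64% were higher without overlap. At an unadjusted p below 0.05, the kinases and turnover genes had none and the immediate early genes had 1 lower, while the zipper factors, the partner factors and the targets each had 1 lower and 1 higher, beside 13.3% lower and 8.91% higher of all genes. List medians ran from −0.02 for the zipper factors to −0.09 for the targets, beside −0.04 over all genes.

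The covered length summed over the 9 windows was 73676, 69298 and 76724 bp in knockdown and 79378, 74903 and 82394 bp in control, so that the groups overlapped. The genes whose covered length followed this sum most closely over the 6 libraries, outside the member windows, were IFIT3, SPNS2 and GGA1, with Pearson r of 0.997, 0.994 and 0.994 (n = 6 libraries that share depth, as a description).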

How the data were processed

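ATAC-seq peak lists of 6 KMS-11 libraries, 3 ATF4 knockdown and 3 control, were used. Per the submitters' processing notes, MACS2 called the peaks and hg38 was the build, with a separate list for each library. The sources used here do not give its version and settings, the aligner or the read filters, any of which could shift or widen peaks. The deposited fold is a ratio of summit pileup to local background, each with 1 added. The deposited −log10 p and −log10 q rank a summit within its library, and every listed −log10 p is at least 2. The deposited score is 10 times the −log10 p, capped at 1000, and was not used in a test. All of these move with depth, for which the background pileup (2.15 to 3.52) stands. No read counts were used, so intervals for counting error are not given.

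Pileups were recovered as the whole number whose Poisson p matched the deposited one within 0.01 on the −log10 scale, for 100% of summits. Covered length was divided by the library's total covered length, multiplied by the mean total, and tested as log2(bp + 200) for genes covered in at least 3 libraries. Ranks were tested over regions listed in all 6 libraries. Both used limma 3.58.1 in R 4.3.3 (trend and robust settings, Benjamini-Hochberg adjustment over all features), and overlap meant at least 1 bp. On simulated data with 100 changed features per size, covered-length tests over 19690 genes recovered 36% at a log2 change of 0.5 and 84% at 1. Rank tests over 68050 regions recovered 6% at a change of 1 score unit and 74% at 2. Exact permutation of 3 against 3 libraries has 0.1 as its smallest p and was not used.

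Gene positions came from RefSeq on GRCh38.p14, and promoters from its sequence table, which matched 7 members. The members, lists and tests were chosen with earlier results of these data known. Named were all members, their regions at gene ends, the strongest 2 flank regions, regions of 1 group only, up to 3 regions with the smallest p, list genes past the threshold or else the smallest p, and the 3 genes most alike. A part of these is described here. Alternatives changed the scaling, window, peak threshold, ranking measure, pseudocount, replicate block and each library left out. Ranks by recovered pileup and within classes were added after the data were seen.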

Additional observations from a re-analysis of the deposited data

How the results depend on the processing

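Of 144 AP-1 gene values under alternative settings, 125 kept direction and side of the threshold, 7 passed it in the same direction and 12 turned, of which FOSB at a −log10 q of 5 passed (limma adjusted p = 0.0104). Of 237 region values, 204 kept both, 15 lost the threshold and 6 passed it in the same direction, and 12 turned. Of these 12, the region downstream of JUN by covered bases also lost its call, and chr1:212636012-212637349 by pileup passed (limma adjusted p = 0.0178). The causes were not tested. Of all genes, 4136 were lower without scaling. Lower and higher genes numbered 227 and 222 with lists of equal length, 194 and 149 with peaks at a −log10 q of 2 or more, 905 and 3608 at 5, 123 and 126 within 10 kb, and 1037 and 1038 within 100 kb, where JUN (limma adjusted p = 0.0236) and BATF (0.0349) passed. Covered-length differences that turned were FOSL1 0.0477 (equal lists), FOSB 0.0567 and FOSL1 0.10 (−log10 q of 2), FOS 0.11, FOSB 0.24, FOSL1 0.17, JUNB 0.11, JUND 0.14 and BATF3 0.0650 (−log10 q of 5), and FOSB 0.26, FOSL2 −0.0656 and JUND 0.0457 (10 kb).

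Regions higher in rank numbered 2680 by −log10 q. Lower and higher regions numbered 4161 and 3671 by pileup, 778 and 578 within classes, and 0 and 0 by covered bases with limma. Score differences that turned were −0.10 by −log10 q and −0.10 by pileup at the BATF3 end, −0.23 and −0.30 by the same measures at chr1:212636012-212637349 near BATF3, and −0.14 within classes at FOSL1. By covered bases they were −0.48 at FOS, −0.28 at JUN, −0.43 at BATF, −0.13 at BATF3, 0.0917 downstream of JUN, −0.14 at chr19:12775038-12776028 near JUNB and 0.0427 at chr19:18294550-18294908 near JUND. The limma adjusted p by covered bases was 0.407 upstream of FOS and 0.341 at RTN2, and within classes 0.0707 downstream of JUN and 0.0846 at RTN2.

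Regions found only in knockdown numbered 1098 with any listed peak and 9 at a −log10 q of 5 or more. Control-only regions numbered 1211 at 5, of which 1 was near AP-1 genes, and 6498 with the stricter overlap, of which 11 were. With equal lists, 5329 were control-only, 10 of them near AP-1 genes, and 668 knockdown-only. Leaving out 1 library at a time gave 94 to 584 lower and 187 to 551 higher genes, and 35 to 1459 lower and 4 to 723 higher regions. It gave 4505 to 5804 control-only and 336 to 1132 knockdown-only regions, with 9 to 12 and 0 to 0 near AP-1 genes.

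Deviations of libraries with the same replicate number correlated at 0.05, 0.06 and 0.04 for covered length. Between different numbers they ran from −0.05 to 0.002. Correlations this small cannot tell whether the numbers pair the libraries. With a replicate block, 632 genes were lower and 672 higher, 1306 regions were lower and 558 higher, and the 3 AP-1 region calls held (limma adjusted p 0.0307, 0.0401 and 0.0241). For covered length, each library correlated best with its own number; for ranks this was not so. At 3 libraries a group, most simulated rank changes of 1 unit were missed, so a region that missed the threshold is not shown to be alike in both groups.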
